A study of Mus musculus with 8 samples.

Results

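The genes described here are Trp53, which encodes the transcription factor p53, the MDM genes Mdm2 and Mdm4, and 7 further genes that p53 is known to activate: Ccng1, Trp53inp1, Zmat3, Phlda3, Sesn2, Ercc5 and Perp. They were chosen by name, as 10 genes of the pathway, and each was read from the array probe set that carries exactly 1 gene symbol and has the highest mean over the samples. Such a probe set was found for 9 of the 10, among 19937 genes in all. Trp53 itself was not analysed here. Transcript levels came from mouse B-lymphoid cells, 4 samples labelled c-jun knockout and 4 labelled wild type, with 1 Affymetrix MoGene 1.0 ST array per sample. All 8 share the strain label SW129/C57BL/6J. BCR-ABL, the oncogenic kinase named in the series title, is not mentioned in the labels of single samples, which also give no treatment, time or age, nor how or in which cells c-jun was deleted. Titles follow 2 naming schemes, RO (replicates 1 and 2 of each genotype) and D/F (replicates 3 and 4). In the second scheme both titles with D are knockout and both with F wild type, so title letter and genotype cannot be told apart there. The labels do not say whether these are batches, or whether samples came from separate cultures or animals, so each p-value reflects sample-to-sample spread of unknown, possibly technical, origin.

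p53 is held at a low level by MDM2, a ubiquitin ligase that marks it for degradation and is itself switched on by p53, which closes a feedback loop. MDM4 is a relative of MDM2 that binds p53 and blocks its activation domain. ARF, 1 of the products of Cdkn2a, binds MDM2 and so releases p53 when an oncogene drives the cell. In mouse B-lymphoid cells transformed by BCR-ABL, loss of ARF is known to favour aggressive leukemia. In mouse fibroblasts c-JUN is known to lower p53 transcription. The comparisons below ask whether p53 target transcripts differed between genotypes, and whether they followed Cdkn2a.

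Values are log2 signals, so a difference of 1 is a 2-fold difference. Array medians lay between 6.93 and 7.22 in knockout samples and between 6.99 and 7.42 in wild-type samples. With 4 arrays per genotype, precision is limited. Jun was at 6.99, 6.46, 7.02 and 6.97 in knockout samples and at 8.82, 8.84, 10.55 and 8.77 in wild-type samples, with no overlap, as the labels imply (log2 difference -2.38, SE 0.32, limma adjusted p = 0.106 in all samples, 0.0195 in RO and 8.47e-05 in D/F samples alone). Of the 9 B-lineage markers measured, all 9 lay more than 2 log2 units above the array median in every sample. Their summed linear signal was 53829 to 65100 in knockout and 54010 to 61619 in wild-type samples. The sums were far lower for myeloid markers (918 to 2176 in knockout, 877 to 1827 in wild type) and for T and NK markers (610 to 1117 in knockout, 609 to 2264 in wild type, the highest in wild type 3). In bulk RNA, fewer cells of a type and less RNA per cell cannot be told apart.

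Promoter windows from RefSeq, on build GRCm38.p6, were available for 7 of the 10 genes, in 8 windows of 300 bases that run from 250 bases before to 50 after a transcript start. The p53 half-site, the decamer that p53 dimers bind, was searched for on both strands. It matched in 3 of the 8 windows, those of Ccng1, Mdm2 and Trp53, and in 8.36% of all 32851 windows. The stretches with the match are shown because Trp53 and Mdm2 form the feedback loop and the product of Ccng1 acts on MDM2. Capitals mark the half-site, which begins 185, 186 and 75 bases before the start in Ccng1, Mdm2 and Trp53. They lie at chr11:40755437-40755496 (minus strand), chr10:117710910-117710969 (minus strand) and chr11:69580259-69580318 (plus strand).
Ccng1: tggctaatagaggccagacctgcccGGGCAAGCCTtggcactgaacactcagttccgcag
Mdm2: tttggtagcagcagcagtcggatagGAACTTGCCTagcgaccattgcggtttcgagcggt
Trp53: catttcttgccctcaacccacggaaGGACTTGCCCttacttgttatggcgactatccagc
The windows of Sesn2, Ercc5, Phlda3 and Mdm4 had no such match. The AP-1 site TGANTCA, which c-JUN dimers bind, was found on either strand in 1 of the 8 windows and in 7.81% of all windows. That match lies 134 bases before 1 of the 2 annotated starts of Mdm4, at chr1:133025519-133025575 on the minus strand, and its stretch is shown because the cells differ in c-JUN.
Mdm4: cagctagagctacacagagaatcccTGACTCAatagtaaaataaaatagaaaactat
The second AP-1 form, TGACGTCA, was in 0 of the 8 windows and in 1.79% of all windows. A match of letters does not show that a factor binds there.

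Neither MDM gene differed between genotypes by more than the spread between samples. Mdm2 (probe set 10372668) was at 9.62, 9.79, 9.42 and 9.62 in knockout replicates 1 to 4, against 9.56, 9.58, 9.46 and 9.89 in wild-type replicates 1 to 4. The groups overlapped over nearly their whole range, and the highest sample was wild type 4. The mean was 9.61 ± 0.15 in knockout and 9.62 ± 0.19 in wild-type samples (SD, n = 4 each), a log2 difference, knockout minus wild type, of -0.0095 with a 95% interval from -0.35 to 0.33. In limma, fitted over all genes with genotype and naming scheme as terms, its Benjamini-Hochberg adjusted p was 0.989. Mdm2 was the steadiest of the 9 genes over the 8 samples, with a spread at percentile 11.2 of all genes and a 1.39-fold range. Mdm4 (probe set 10357773) was at 9.20, 9.77, 9.57 and 9.55 in knockout samples and at 8.996, 9.62, 9.21 and 10.08 in wild-type samples. Both its lowest and its highest sample were wild type, replicates 1 and 4. Its log2 difference was 0.046 (95% interval -0.45 to 0.54, limma adjusted p = 0.955).

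**Figure D1:**
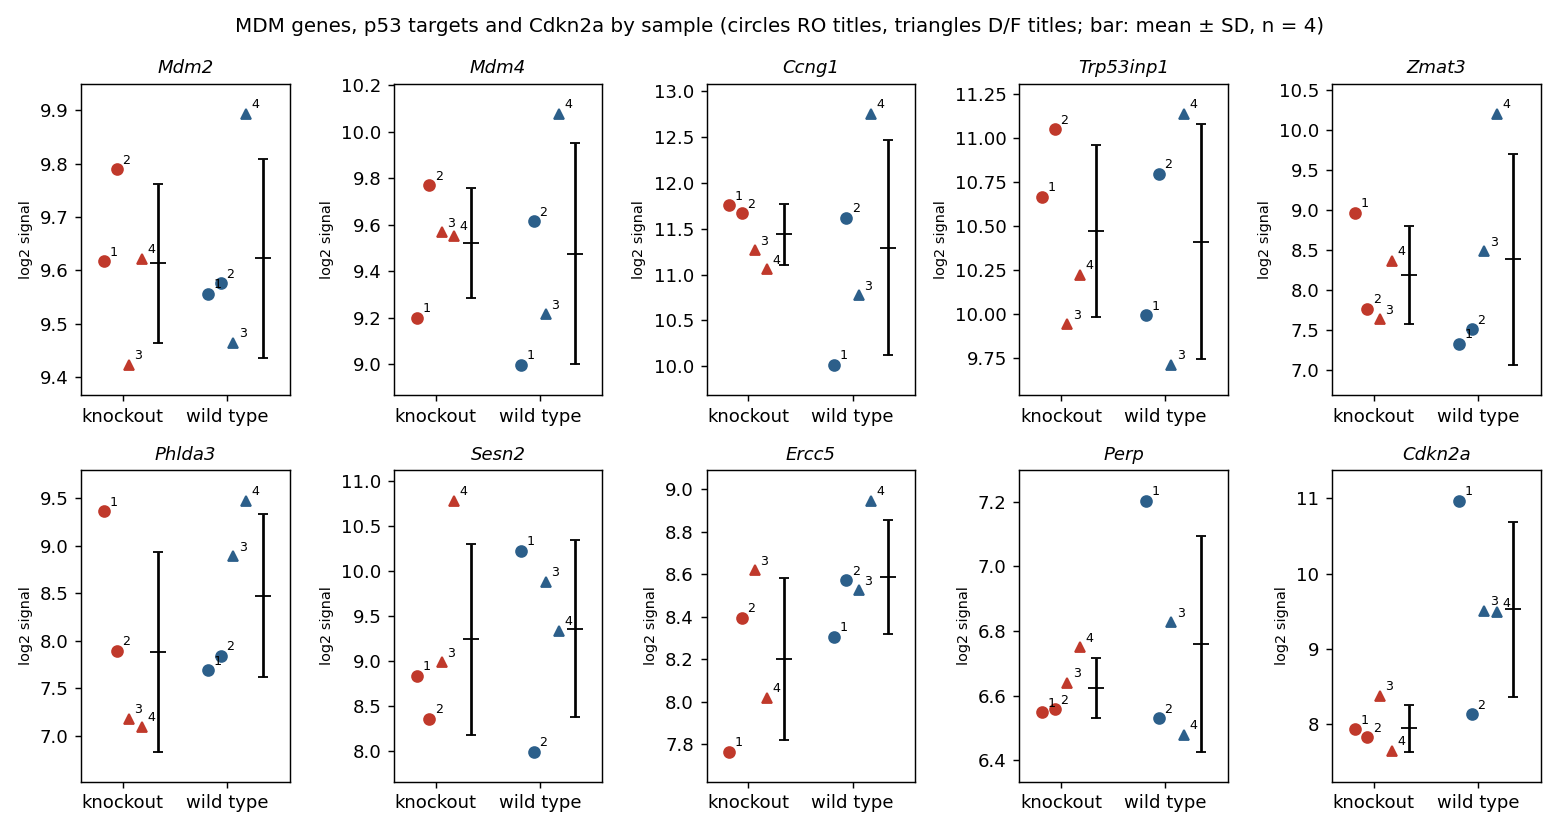
Log2 signal of Mdm2, Mdm4, the 7 other p53 targets and Cdkn2a in each sample, with knockout left and wild type right, replicate numbers, circles for RO and triangles for D/F titles, bars for the mean ± SD (n = 4), and an axis for each panel. Wild type 4 is the highest sample for Mdm2, Mdm4, Ccng1, Trp53inp1, Zmat3, Phlda3 and Ercc5, while knockout and wild type overlap in every panel.

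Ccng1, Trp53inp1, Zmat3 and Phlda3, classical targets of p53, varied far more between samples than Mdm2, and did not separate the genotypes. Ccng1 (probe set 10385271) encodes cyclin G1, which directs a phosphatase to MDM2. It was at 11.76, 11.67, 11.27 and 11.06 in knockout samples, against 10.02, 11.62, 10.78 and 12.75 in wild-type samples. The 4 knockout samples lay close together, and the wild-type samples reached beyond them on both sides, from replicate 1 to replicate 4. The means were 11.44 ± 0.33 in knockout and 11.29 ± 1.17 in wild-type samples (SD, n = 4 each). The log2 difference was 0.15 (SE 0.45, limma adjusted p = 0.930), and it became -0.32 without wild type 1 and 0.69 without wild type 4. Over all 8 samples Ccng1 had a 6.65-fold range. Trp53inp1 (probe set 10503259), whose protein promotes p53 activity and autophagy, was at 10.67, 11.05, 9.94 and 10.22 in knockout and at 9.99, 10.80, 9.71 and 11.14 in wild-type samples. Both RO knockout samples lay above both D/F knockout samples, and the wild-type samples spanned the knockout range on both sides. Its log2 difference was 0.061 (SE 0.30, limma adjusted p = 0.956; -0.18 without wild type 1 and 0.43 without wild type 4).

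Zmat3 (probe set 10497673) encodes a zinc-finger protein that binds RNA. Its signal was 8.97, 7.76, 7.63 and 8.36 in knockout samples and 7.33, 7.51, 8.49 and 10.21 in wild-type samples. Wild type 4 stood highest, and the 2 lowest samples were wild type 1 and 2. Of the 9 genes Zmat3 had the widest range over the 8 samples, 7.37-fold, and its spread was at percentile 98.7 of all genes. The log2 difference between genotypes was -0.20 (SE 0.49, limma adjusted p = 0.913), and 0.37 without wild type 4. Phlda3 (probe set 10350146) encodes a pleckstrin-homology protein that competes with the kinase AKT for membrane lipids. It was at 9.36, 7.89, 7.18 and 7.09 in knockout samples, against 7.69, 7.84, 8.89 and 9.48 in wild-type samples. Knockout 1 and wild type 3 and 4 were high, and the other samples lay at 7.89 or below. The log2 difference was -0.59 (SE 0.51, limma adjusted p = 0.878), with a 95% interval from -1.71 to 0.52. It was -1.18 without knockout 1 and -0.19 without wild type 4.

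Of the remaining 3 targets, Ercc5 was also highest in wild type 4, while Sesn2 and Perp peaked in other samples. Sesn2 (probe set 10516932) encodes sestrin 2, a stress protein that restrains mTORC1 and is also switched on by ATF4. Its levels were 8.83, 8.36, 8.98 and 10.78 in knockout and 10.22, 7.99, 9.88 and 9.34 in wild-type samples. The 2 highest Sesn2 signals were in knockout 4, the lowest sample for Phlda3, and wild type 1, the lowest for Ccng1. Its log2 difference was -0.12 (SE 0.47, limma adjusted p = 0.945; 0.41 without wild type 1). Ercc5 (probe set 10345981), which encodes the XPG endonuclease of nucleotide excision repair, was at 7.77, 8.40, 8.62 and 8.02 in knockout and at 8.31, 8.57, 8.53 and 8.95 in wild-type samples. It had the smallest limma p of the 9 genes (unadjusted p = 0.0851, adjusted p = 0.878). The log2 difference was -0.39 (SE 0.21), with knockout 1 and 4 below all wild-type samples and knockout 3 above 3 of them. Perp (probe set 10361887), a membrane protein of epithelial junctions that also promotes cell death, was at 6.55, 6.56, 6.64 and 6.75 in knockout and at 7.20, 6.53, 6.83 and 6.48 in wild-type samples. Each of the 8 signals lay below the median of its own array, which leaves its differences hard to size. Its log2 difference was -0.14 (SE 0.20, limma adjusted p = 0.878).

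In all, 0 of the 9 genes passed the adjusted threshold of 0.05 and 0 had an unadjusted limma p under 0.05. Of all genes, 0.00502% passed (1 gene, lower in knockout samples) and 2.25% had an unadjusted p under 0.05. The groups overlapped for all 9, as they did for all but 1.29% of all genes. Means were lower in knockout samples for 6 of the 9, with a median log2 difference of -0.12, against 72% and -0.11 over all genes. With each array centred on its own median, 6 of the 9 were higher in knockout samples, against 60.3% of all genes, with medians of 0.035 and 0.040, and Mdm2, Sesn2 and Perp changed sign (0.14, 0.035 and 0.017). The spread over the 8 samples was wider for these genes, with a median SD of 0.54 against 0.26 over all genes.

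The genotype difference ran in opposite directions in the 2 naming schemes for 8 of the 9 genes, against 55.9% of all genes. In the RO samples, knockout samples were higher in Phlda3 by 0.86, in Zmat3 by 0.95, in Ccng1 by 0.89 and in Trp53inp1 by 0.46. In the D/F samples the log2 differences were -2.05 for Phlda3, -1.35 for Zmat3, -0.60 for Ccng1 and -0.34 for Trp53inp1. Mdm2 and Mdm4 had the same pair of signs, at 0.14 and 0.18 in RO and -0.16 and -0.087 in D/F samples, whereas Sesn2 and Perp had the reverse, at -0.51 and -0.31 in RO and 0.28 and 0.042 in D/F samples. Ercc5 alone of the 9 kept its sign, with -0.36 in RO and -0.42 in D/F samples. Single samples set some of these signs. Among D/F samples, wild type 3 lay below both knockout samples for Ccng1 (10.78), Trp53inp1 (9.71) and Mdm4 (9.21). Only wild type 4 lay above both there. Among RO samples, Ccng1 was at 11.62 in wild type 2, near the knockout samples (11.76 and 11.67), and at 10.02 in wild type 1. For Phlda3 and Zmat3 both D/F wild-type samples lay above both D/F knockout samples. The interaction of genotype and naming scheme, tested in limma over all genes, had an unadjusted p of 0.000377 for Phlda3 and 0.0106 for Zmat3. The other 7 genes had unadjusted p-values above 0.05, and 5.38% of all genes fell below it. After adjustment 0 of the 9 passed (Phlda3 adjusted p = 0.343, Zmat3 0.716), while 0.0301% of all genes did. In the D/F samples alone, where 2 D titles (knockout) stand against 2 F titles (wild type), Phlda3 passed (limma adjusted p = 0.00015), as 0.396% of all genes did there. Its signals in knockout 3 and 4 lay slightly below the medians of their own arrays, which leaves that difference hard to size. In the RO samples alone the limma adjusted p of Phlda3 was 0.397, and 0.161% of all genes passed.

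**Figure D2:**
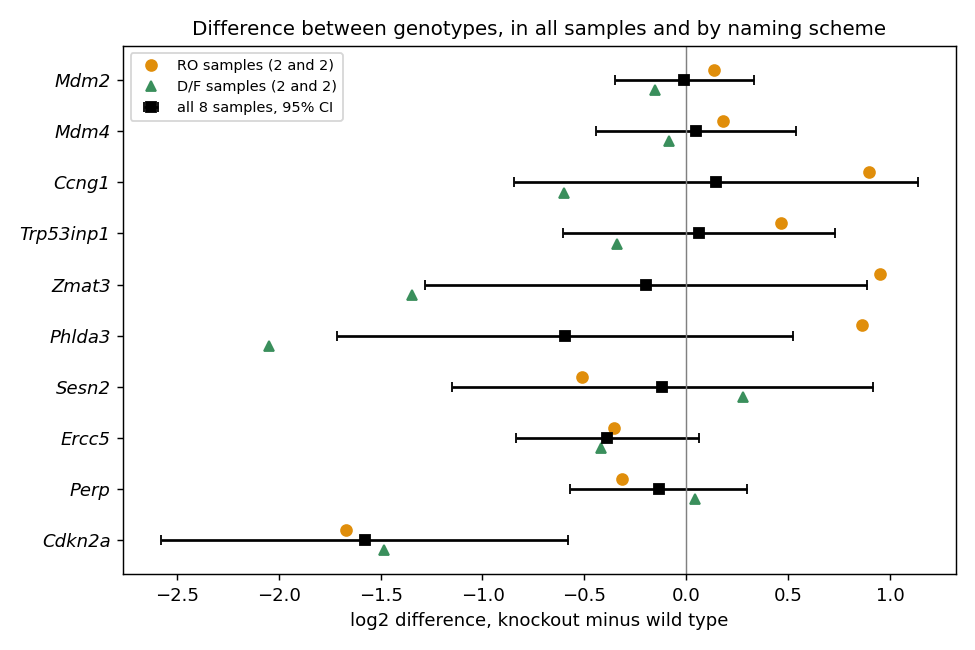
Log2 difference, knockout minus wild type, for 9 genes of the pathway and Cdkn2a, where black squares give all 8 samples with the 95% interval of the limma fit, orange circles the RO samples and green triangles the D/F samples (2 per genotype each). Intervals of the 9 pathway genes all include 0, and Phlda3 runs from 0.86 in RO to -2.05 in D/F samples.

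A target activity was then computed for each sample, as the mean over Mdm2 and the 7 other targets of the log2 signal minus that gene's mean over the 8 samples. It is a description without a test. Activity was 0.16, -0.099, -0.32 and -0.044 in knockout replicates 1 to 4, against -0.24, -0.23, 0.037 and 0.75 in wild-type replicates 1 to 4. Wild type 4 stood above all other samples, and the lowest were knockout 3 and wild type 1. Mean activity was -0.077 ± 0.20 in knockout and 0.077 ± 0.46 in wild-type samples (SD, n = 4 each), a difference of -0.15 that is smaller than the spread within wild type. Without wild type 4 the difference was 0.068. Among RO samples the difference was 0.27, and among D/F samples it was -0.57. When arrays were centred on their medians, activity was 0.32, 0.14, -0.37 and -0.094 in knockout samples, against -0.49, -0.23, -0.21 and 0.93 in wild-type samples. Knockout 2 and wild type 3 changed sign on that scale, and wild type 4 was again highest. The centred means were -0.00077 in knockout and 0.00077 in wild-type samples, with a difference of 0.59 among RO and -0.59 among D/F samples.

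Wild type 4 had the highest signal for 6 of the 8 targets and lay above the gene's mean in 7 of 8. The exceptions to its lead were Sesn2, highest in knockout 4, and Perp, highest in wild type 1 and lowest in wild type 4. Knockout 1 was the second highest sample by activity, with Phlda3 1.18 and Zmat3 0.69 above their means but Ercc5 at its lowest (-0.63). Knockout 3 lay above the gene's mean for 1 target, Ercc5. Wild type 4 also had the lowest summed signal of myeloid markers (877) and of T and NK markers (609) of all 8 samples, by narrow margins. Knockout 4 had 918 for myeloid markers, and knockout 2 and 1 had 610 and 611 for T and NK markers. Of these markers, 5 of 8 myeloid and 4 of 7 T and NK lay below the array median in every sample. Their part in the activity of wild type 4 was not tested. The array median of wild type 4, 6.99, was the lowest of the wild-type samples but not of all, since knockout 2 had 6.93.

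**Figure D3:**
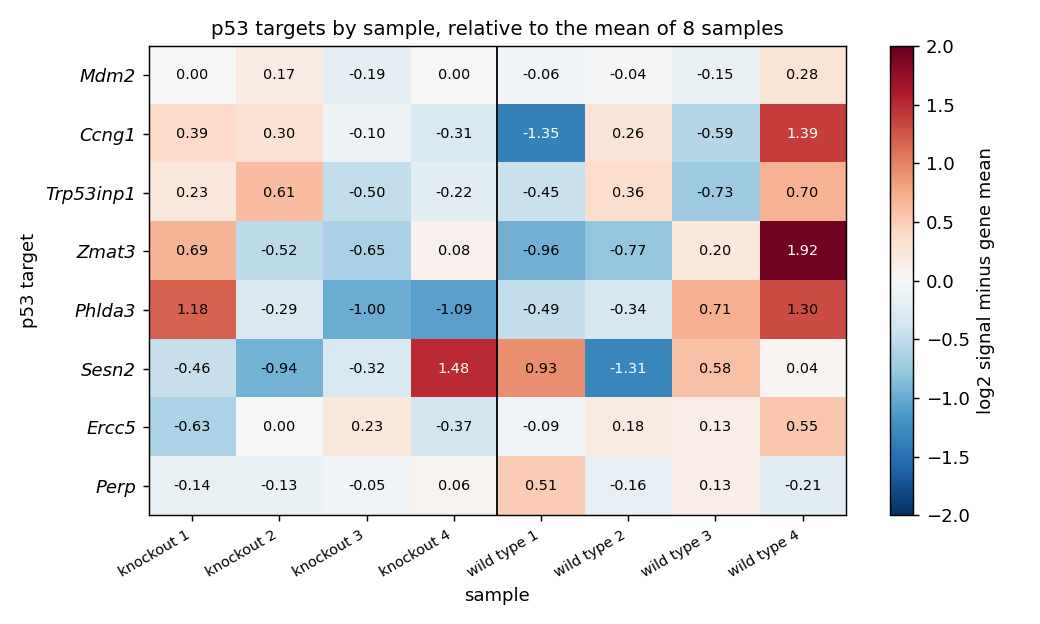
Log2 signal of each p53 target (rows) in each sample (columns, knockout left of the line and wild type right) minus the gene's mean over the 8 samples, red above and blue below the mean. Wild type 4 is above the mean in 7 of 8 rows, with 1.92 for Zmat3, while Sesn2 peaks in knockout 4 (1.48).

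Cdkn2a (probe set 10514340) encodes both ARF and the cyclin-dependent kinase inhibitor INK4A, which start from separate first exons and share a later one. The annotation of this probe set names a transcript of each, so its signal does not separate ARF from INK4A. The 150 bases before each start are shown in the gene's direction, the ARF start at chr4:89294620-89294769 and the INK4A start at chr4:89282193-89282342, both on the minus strand.
ARF start: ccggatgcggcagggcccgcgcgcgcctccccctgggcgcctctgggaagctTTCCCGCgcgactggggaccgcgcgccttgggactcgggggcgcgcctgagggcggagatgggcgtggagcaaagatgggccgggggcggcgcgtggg
INK4A start: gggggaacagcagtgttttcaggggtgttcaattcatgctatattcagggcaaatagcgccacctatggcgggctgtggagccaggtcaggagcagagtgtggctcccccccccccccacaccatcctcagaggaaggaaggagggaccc
The ARF stretch holds 22 CpG dinucleotides and is 78.7% G or C, and the INK4A stretch holds 2 and is 60.0% G or C. Capitals mark an E2F core, GCGGGAA searched on both strands and read here as its reverse complement, 98 bases before the ARF start. The INK4A window had none, that of Ercc5 held 1, and 4.60% of all windows held one. E2F factors are known to activate ARF when oncogenes drive proliferation.

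Cdkn2a was at 7.93, 7.83, 8.37 and 7.65 in knockout samples, against 10.97, 8.13, 9.50 and 9.49 in wild-type samples. Wild type 1, 3 and 4 lay above all knockout samples, and wild type 2 fell within the knockout range. The 2.99-fold lower mean in knockout samples (log2 difference -1.58, SE 0.46) had an adjusted limma p of 0.878 over all genes. An exact permutation test (2-sided, 70 ways to assign the genotypes) gave p = 0.0571, where 0.0286 is the smallest value possible. Without wild type 1 the log2 difference was -0.99, without wild type 2 it was -2.13, and with array weights -1.04. Among RO samples it differed by -1.67 (limma adjusted p = 0.397 in those samples alone) and among D/F samples by -1.48 (0.00344), where 0.161% and 0.396% of all genes passed.

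Target activity did not rank the samples as Cdkn2a did. Wild type 1 had the highest Cdkn2a signal of all, 10.97, and the second lowest activity, -0.24. Wild type 3 and 4 had nearly equal Cdkn2a signals, 9.50 and 9.49, and activities of 0.037 and 0.75. Among the 5 samples with Cdkn2a at 8.37 or lower, activity ran from -0.32 (knockout 3) to 0.16 (knockout 1). The lowest Cdkn2a signal, 7.65 in knockout 4, went with an activity of -0.044. The signals left a gap between 8.37 and 9.49, with 3 wild-type samples above it and 5 samples below it.

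**Figure D4:**
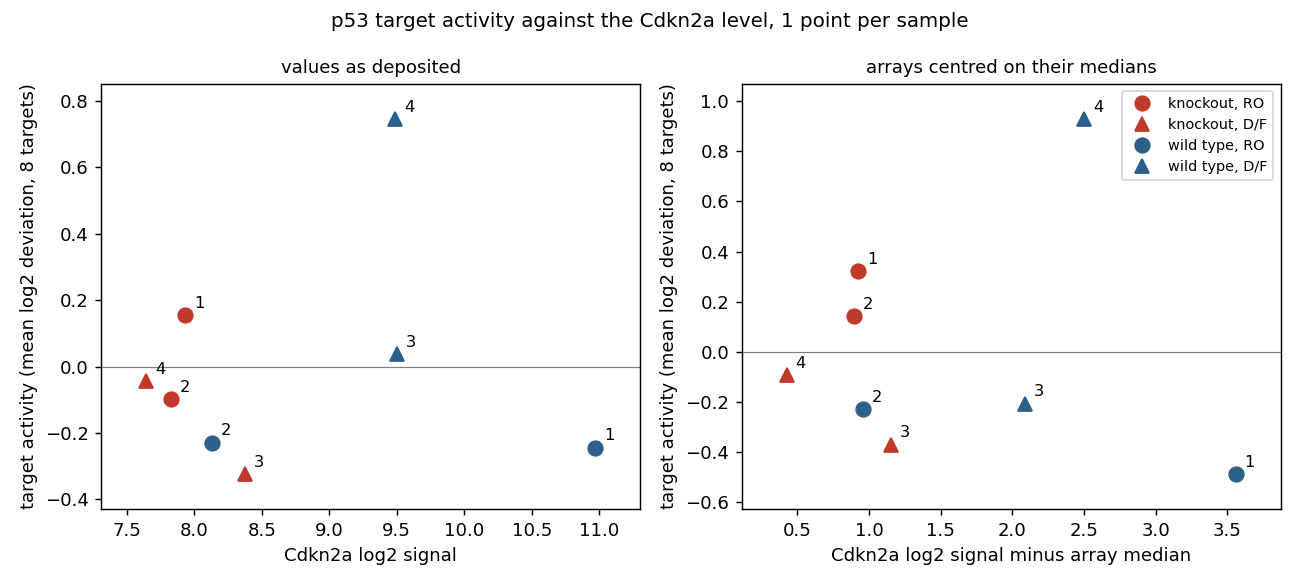
Target activity (mean log2 deviation over 8 targets) against the Cdkn2a log2 signal, 1 point per sample with its replicate number, as deposited (left) and relative to each array's median (right). Wild type 1 is farthest right with low activity (-0.24, or -0.49 when centred), and wild type 4 is highest (0.75, or 0.93).

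The slope of each gene on the Cdkn2a signal was fitted in limma over all genes, with naming scheme as a term. Ccng1 had a slope of -0.30 log2 units per log2 unit of Cdkn2a (SE 0.19, limma adjusted p = 0.441), Trp53inp1 -0.17 (SE 0.13) and Mdm4 -0.12 (SE 0.096). Mdm2 was at -0.012 (SE 0.067) and Zmat3 at -0.0068 (SE 0.23), while Phlda3 had 0.16 (SE 0.25), Ercc5 0.11 (SE 0.10), Perp 0.15 (SE 0.078) and Sesn2 0.32 (SE 0.20). Slopes of 0 of the 9 genes passed, with adjusted p-values from 0.429 to 0.986, and 0 had an unadjusted p under 0.05. Of all other genes 0% passed and 11.4% had an unadjusted p under 0.05. Without wild type 4, the slopes of Ccng1 (-0.47) and Trp53inp1 (-0.28) passed, both with a limma adjusted p of 0.0499, as did 1204 genes in all. Without wild type 1, Ccng1 had a slope of 0.37 and Trp53inp1 0.14. The negative direction of both slopes thus rested on wild type 1, and wild type 4 ran against it. With genotype added, the slope was -0.54 (SE 0.27) for Ccng1, 0.61 (SE 0.27) for Sesn2 and -0.31 (SE 0.19) for Trp53inp1, each with an adjusted p of 0.798.

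Over the 8 samples, Perp had the correlation with Cdkn2a farthest from 0 of the 9 genes (Pearson r = 0.72, exact permutation p = 0.0515, adjusted p = 0.424 over all genes; Spearman rho = 0.31, p = 0.462), where the median r over all genes was 0.36. Without wild type 1 and 3, the 2 samples farthest from the median Cdkn2a level, r was -0.61, so the relation rested on those samples. With arrays centred on their medians Perp had r = 0.49 (exact permutation p = 0.229) and rho = -0.048, against a median r of -0.092 over all genes. For Ccng1 r was -0.43 (exact permutation p = 0.285) and rho -0.38 (p = 0.360), and r became 0.84 without those 2 samples. With centred arrays its r was -0.36, and -0.55 without wild type 1 and 4, the 2 farthest on that scale. The 2 scales thus left out different samples, and what the change of sign depends on was not tested. Zmat3 had r = -0.00063 (exact permutation p = 0.999) and rho = -0.17 (p = 0.703). Of the 19936 genes correlated with Cdkn2a, 0 passed the adjustment by either measure, and 2189 (10.98%) had an unadjusted exact permutation p under 0.05 for r. With centred arrays 0 passed as well, and 1044 (5.24%) had such an unadjusted p.

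Other genes of the p53 pathway were taken from lists, in which 37 of 42 further targets, 25 of 27 regulators of p53, both other members of the p53 family and 9 of 9 regulators of ARF were measured. Cdkn1a and Bax were not analysed here. Between genotypes 0 members of any list passed in either direction. In the target list 29 of 37 had lower means in knockout samples, against 72% of all genes, with a median log2 difference of -0.14 against -0.11. With arrays centred on their medians 16 of 37 were lower and 21 higher, where 60.3% of all genes were higher. In 4 of the 37 the unadjusted limma p was under 0.05, Tnfrsf10b, Dcxr, Pmaip1 and Psrc1, the last named after its value was seen, against 2.25% of all genes. Tnfrsf10b, a death receptor, was at 6.11, 6.43, 6.45 and 6.50 in knockout and at 6.86, 6.47, 7.66 and 7.98 in wild-type samples. Only wild type 2 fell within the knockout range (log2 difference -0.87, SE 0.23, limma adjusted p = 0.878). The signal lay below the array median in 6 of the 8 samples, all but wild type 3 and 4, which leaves the difference hard to size. The sugar reductase gene Dcxr did not overlap, at 8.32, 8.66, 7.87 and 7.99 in knockout and 8.87, 8.75, 8.77 and 8.72 in wild-type samples (log2 difference -0.57, SE 0.17, limma adjusted p = 0.878).

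The BH3-only genes Pmaip1 and Bbc3, which promote mitochondrial cell death, had log2 differences of -0.52 (SE 0.22) and -0.38 (SE 0.22). Fas, a death receptor, had -0.061 (SE 0.22), and the nuclease gene Aen -0.12 (SE 0.15). Tigar, a regulator of glycolysis, had -0.17 (SE 0.14) and was the other gene of this list whose groups did not overlap, which makes 2 of 37 with all knockout samples lower, against 1.03% of all genes. When arrays were centred on their medians its difference was -0.020. Among genes of arrest and repair, Btg2 had 0.27 (SE 0.39), Gtse1 -0.21 (SE 0.21), Ddb2 -0.096 (SE 0.18), Rrm2b -0.16 (SE 0.18), and the phosphatase gene Ppm1d 0.074 (SE 0.14). Sesn1, the sestrin related to Sesn2, was at 11.88, 11.58, 10.86 and 10.17 in knockout and 10.06, 11.52, 11.11 and 10.98 in wild-type samples, a difference of 0.20 (SE 0.35). Its highest samples were knockout 1 and 2, in which Sesn2 was at 8.83 and 8.36. Fas, Eda2r and Plk2 lay below the array median in all 8 samples, the last 2 with differences of -0.11 (SE 0.17) and -0.14 (SE 0.21). After centring, the differences of Fas, Aen, Ddb2, Eda2r and Plk2 were above 0, at 0.092, 0.029, 0.058, 0.044 and 0.0090.

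Regulators of p53 had higher means in knockout samples in 19 of 25 genes, against 28% of all genes, with a median log2 difference of 0.068. An unadjusted limma p under 0.05 was reached by 0 of the 25, against 2.25% of all genes. After centring 24 of 25 were higher, against 60.3% of all genes, with a median of 0.22. Centring shifts the difference of every gene by the same amount, so the 2 counts are not separate results. Whether other genes of similar signal shared this direction was not tested. Among the regulators, before centring, the ubiquitin ligases Cop1 and Rchy1, which act on p53, had 0.35 (SE 0.20) and 0.32 (SE 0.19). The deubiquitinase gene Usp7 had 0.096 (SE 0.17). The checkpoint kinases Chek1, Chek2 and Atm had 0.29 (SE 0.24), 0.22 (SE 0.23) and 0.068 (SE 0.20). With 1 array left out, the difference ran from 0.014 to 0.46 for Chek1 and from -0.032 to 0.35 for Chek2. Wild type 1 was the lowest sample for both, at 9.05 and 7.83. Npm1, a nucleolar protein that binds ARF, had 0.36 (SE 0.17), and the ribosomal protein gene Rpl5, whose product binds MDM2, 0.28 (SE 0.13). The mean of all Rpl5 probe sets gave -0.031. The family members Trp63 and Trp73 had -0.070 (SE 0.19) and -0.13 (SE 0.18), or 0.083 and 0.028 after centring. Among ARF regulators, the activator Dmtf1 had 0.24 (SE 0.21), the repressor Tbx2 -0.30 (SE 0.20) and Hspa9 0.20 (SE 0.14). Of the 9 measured, 3 had higher and 6 lower means in knockout samples, where 72% of all genes were lower, with a median log2 difference of -0.091. After centring 7 of the 9 were higher, against 60.3% of all genes. None of the 9 had an unadjusted limma p under 0.05.

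By Pearson correlation over the 8 samples, with arrays centred on their medians, the genes most like the target activity among 19928 others were Tmem43 (r = 0.991), Tulp4 (0.989), Susd6 (0.983), 1700049L16Rik (0.975) and Trmt10b (0.973). Tmem43 was at 9.85, 9.66, 9.48 and 9.75 in knockout and 9.64, 9.53, 9.95 and 10.29 in wild-type samples. Its highest sample was wild type 4, which also had the highest activity. Since these genes were picked among 19928 for their likeness to the activity, a shared pattern follows from that choice.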

How the data were processed

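The authors deposited log2 signals for 34760 probe sets. MAS5, which relies on mismatch probes that this array lacks, is the tool named per the submitters' processing notes. Its settings and the way probes were summarized are unknown: not given in the sources used here. Both the log2 scale and the scaling, a 2% trimmed linear mean of 500 on every array, were read from the deposited values.

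By the array's platform annotation, 21640 probe sets had 1 symbol, 1321 several and 11799 none. The probe set of highest mean was kept per gene (19937 genes). Genotype differences, interactions and slopes on Cdkn2a came from limma 3.58.1 under R 4.3.3 (eBayes with trend; naming scheme as a term; 5 residual degrees of freedom, fewer with an interaction, an added term or fewer samples), adjusted by Benjamini-Hochberg over all genes at 0.05, and checked on simulated data. Correlations used all 40320 pairings. Replicates were numbered in order of deposit. Genes named were the members, Cdkn2a, Jun, a listed choice of pathway genes, and up to 2 further genes per list by smallest p. Members and lists were chosen with earlier results of these data known. Alternatives covered the naming scheme, scaling, dim genes, probe sets, variance models and left-out arrays. RefSeq tables gave names and promoter windows (GRCm38.p6). The annotation's build is not given here.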

Additional observations from a re-analysis of the deposited data

How the results depend on the processing

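No paired analysis was possible because the labels carry no replicate numbers. With all 8 samples 1 gene was called between genotypes (limma, adjusted p under 0.05). That count was 0 among the 9968 brighter genes, 2 with array weights, 32 in RO and 79 in D/F samples alone, and 0 to 2 with 1 array left out (0 without wild type 1, 2 or 4). The interaction called 6 genes, 2 after quantile normalization, and 6 to 38 with 1 array left out (38 without wild type 2). Slopes on Cdkn2a called 0 genes (2264 at an unadjusted p under 0.05), and 0 to 1204 with 1 array left out (66 without knockout 4, 4 without wild type 3, 1204 without wild type 4). The activity difference of -0.15 became 0.27 with RO and -0.57 with D/F samples alone, and -0.26 to 0.068 with 1 array left out. It was -0.10 after quantile normalization, -0.0015 with centred arrays, and -0.20 to -0.092 with 1 target left out. Of the values of single genes, 408 kept direction and call outside the left-out arrays, and 45 changed sign, none of them called with all samples. Another 5 passed the threshold: Jun with array weights (adjusted p = 0.0206), in RO (0.0195) and in D/F samples (8.47e-05), and Cdkn2a (0.00344) and Phlda3 (0.00015) in D/F samples. Jun also passed without wild type 3 (0.00684). The sign changed in D/F samples for Mdm4 -0.087, Ccng1 -0.60, Sesn2 0.28, Trp53inp1 -0.34, Perp 0.042, Fas 0.089, Btg2 -0.31, Ddb2 0.20, Rrm2b 0.16, Eda2r 0.011, Sesn1 -0.53, Plk2 0.093, Chek2 -0.20, Trp63 0.13, Dmtf1 -0.15, Rchy1 -0.016 and Tbx2 0.031. It changed in RO samples for Mdm2 0.14, Phlda3 0.86, Zmat3 0.95 and Gtse1 0.13. With array weights it changed for Mdm2 0.077, Sesn2 0.22, Zmat3 0.10, Fas 0.035 and Sesn1 -0.095. With centred arrays it changed for Mdm2 0.14, Sesn2 0.035, Perp 0.017, Fas 0.092, Ddb2 0.058, Aen 0.029, Eda2r 0.044, Plk2 0.0090, Trp63 0.083 and Trp73 0.028. After quantile normalization it changed for Perp 0.018, Fas 0.069, Ddb2 0.060, Eda2r 0.0031, Trp63 0.085 and Trp73 0.025. Averaging probe sets turned Rpl5 -0.031. Slopes turned with genotype added for Ercc5 -0.047 and Phlda3 -0.088. With 1 array left out, differences that changed sign ran over Mdm2 -0.073 to 0.11, Mdm4 -0.10 to 0.25, Ccng1 -0.32 to 0.69, Sesn2 -0.56 to 0.41, Zmat3 -0.67 to 0.37, Trp53inp1 -0.18 to 0.43, Perp -0.24 to 0.034, Fas -0.21 to 0.15, Btg2 -0.024 to 0.79, Gtse1 -0.32 to 0.036, Ddb2 -0.18 to 0.023, Sesn1 -0.24 to 0.49, Plk2 -0.29 to 0.026, Atm -0.071 to 0.21, Chek2 -0.032 to 0.35, Trp63 -0.18 to 0.073 and Usp7 -0.033 to 0.22. Slopes that did so ran over Mdm2 -0.046 to 0.050, Mdm4 -0.18 to 0.047, Ccng1 -0.47 to 0.37, Sesn2 -0.45 to 0.59, Phlda3 -0.011 to 1.20, Zmat3 -0.18 to 0.65, Trp53inp1 -0.28 to 0.14 and Perp -0.041 to 0.19. The cause of these changes was not tested, apart from fewer genes or samples where the setting removes them.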

Other observations

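Among the further p53 targets, Ephx1, which encodes microsomal epoxide hydrolase and was chosen here after its values were seen, was at 9.78, 8.11, 7.39 and 7.68 in knockout and at 8.02, 7.22, 9.32 and 9.64 in wild-type samples. Its 3 highest samples, knockout 1 and wild type 3 and 4, were also the 3 highest for Phlda3. Knockout minus wild type was 1.33 among RO and -1.95 among D/F samples (log2), with an interaction adjusted p of 0.343 in limma over all genes. Psrc1, a spindle protein gene, and Slc19a2, a thiamine transporter gene, were highest in wild type 4, at 10.44 and 9.65, where Zmat3 and Ccng1 were highest too. Other targets of the same list went the other way, since Btg2 and Cd80 were lowest in wild type 4, at 7.95 and 6.35. Psrc1, Slc19a2, Btg2 and Cd80 were picked for this comparison after their values were seen.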
